A study of Arabidopsis thaliana with 12 samples.

Results

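GLK2, CGA1, GATA2 and GATA4 encode transcription factors that act when a dark-grown seedling turns green. They were taken by their loci, AT5G44190, AT4G26150, AT2G45050 and AT3G60530, from RNA-seq tables that list 1731 Arabidopsis thaliana genes in all. The BES1-RNAi tables, with 1077 genes, list all 4, and the wild-type tables, with 1287 genes, list GLK2, CGA1 and GATA2. GATA4 in wild type was not analysed here. The libraries were made from whole seedlings, 3 days old, of wild type and of the line BES1-RNAi. Such a line carries a transgene that silences a gene by RNA interference, here BES1, a transcription factor of brassinosteroid signalling. Each genotype was sampled in the dark and after green light had been given without a break for 1 h, at 10 µmol per m2 and s, with 3 libraries in each of the 4 groups. The sources used here do not give the promoter of the transgene or the number of lines. The BES1 transcript was not analysed here, and the genotypes keep the names of their labels.

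Greening needs nuclear genes for chlorophyll synthesis and light harvesting to be switched on together with the growth of the chloroplast. GLK2, a GARP-family factor, activates such genes and overlaps in this with its paralog GLK1. CGA1, also called GNL, belongs with its paralog GNC to the GATA factors that promote chloroplast development, and its transcript is known to respond to light and to cytokinin. GATA2 and GATA4 form another branch of the GATA family and promote the change from dark to light development, and brassinosteroid signalling is known to repress GATA2 transcription.

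The 3 GATA members share a zinc finger, the DNA-binding part of the family. Its coding stretch is shown to compare the 3 genes within this part. Each run spans 78 bases on the plus strand of the RefSeq assembly TAIR10.1, and capitals mark the 4 cysteine codons that hold the zinc.
GATA2, chr2:18583591-18583668: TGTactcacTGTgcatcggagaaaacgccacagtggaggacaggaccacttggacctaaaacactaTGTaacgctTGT
GATA4, chr3:22373902-22373979: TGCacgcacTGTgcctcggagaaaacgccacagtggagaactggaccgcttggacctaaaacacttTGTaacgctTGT
CGA1, chr4:13253892-13254278 with the intron left out: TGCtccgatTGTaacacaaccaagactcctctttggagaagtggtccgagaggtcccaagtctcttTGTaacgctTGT
GATA2 and GATA4 differed at 7 of the 78 bases, CGA1 and GATA2 at 32, and CGA1 and GATA4 at 26. The finger lies within coding exon 2 of GATA2 and of GATA4, whereas in CGA1 it is split between coding exons 2 and 3. Over whole transcripts, the longest run shared letter for letter was 23 bases between GATA2 and GATA4, 25 between CGA1 and GNC, and 24 between GLK2 and GLK1. The sources used here do not give how reads that match several loci were treated.

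The genes stand on the plus strand of 4 chromosomes. GLK2 lies at chr5:17798262-17800926 with 2 annotated transcripts of 4 and 5 exons. CGA1 lies at chr4:13253084-13255106 with 3 exons, GATA2 at chr2:18582697-18584127 with 2 and GATA4 at chr3:22373013-22374554 with 2. No other annotated gene overlaps any of them.

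Values are FPKM, that is, fragments scaled to the length of the transcript and to all mapped fragments of a library, and levels can therefore be set side by side between genes. How many reads a library holds is unknown. Whether the libraries of a group were grown apart is not said in the labels. The p-values thus measure only how these libraries vary, which may be technical. Most genes in the tables differed between dark and light: a difference of at least 2-fold between the dark and light means was found for 1080 of 1287 genes in wild type and for 1009 of 1077 in BES1-RNAi. The filter behind the lists is unknown and may have used that difference, so tests of the light response describe the listed genes and are not taken as independent evidence. Of 4 genes used to check the seedlings, PIL1, ATHB2 and HLS1, which mark dark or shade growth, were listed for both genotypes and fell in light in both, while PORA was not analysed here. A ribosomal RNA locus differed both between dark and light and between genotypes, and its part in the results was not tested. This locus, AT2G01020, read from 4138 to 8038 FPKM in dark and from 19426 to 52910 FPKM in green-light libraries of wild type. In BES1-RNAi it read from 1324 to 3151 and from 4888 to 6892 FPKM, lower than in wild type in the dark (log2 difference -1.52, limma adjusted p = 0.0047) and in light (log2 difference -2.43, limma adjusted p = 7.4e-05). Another locus, AT3G41979, had the same difference in light, -2.43 (limma adjusted p = 7.4e-05). All listed FPKM summed to 172431 in library 3 of wild type in light, the library with 52910 FPKM of AT2G01020.

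GLK2 rose in green light in both genotypes, and under both conditions BES1-RNAi held more of it. In wild type the dark libraries held GLK2 at 28.7, 29.5 and 30.04 FPKM, and those from green light at 220.3, 228 and 219 FPKM. In BES1-RNAi the level was 72.3, 68.0 and 75.5 FPKM in the dark and 365, 384 and 399 FPKM in green light. The 4 groups did not overlap, and their order from low to high was wild type in the dark, BES1-RNAi in the dark, wild type in light and BES1-RNAi in light. Such separation was common: 96.3% of genes in wild type and 98.9% in BES1-RNAi separated dark from light. Of the 633 genes listed for both genotypes, 69.0% separated the genotypes in the dark and 73.8% in light. The means of GLK2 were 29.4 ± 0.703, 71.9 ± 3.75, 222 ± 5.04 and 383 ± 16.7 FPKM (SD, n = 3 each), so that BES1-RNAi in the dark held 32.3% of the level of wild type in light. In RNA from whole seedlings, a change in how many cells express a gene and a change in its RNA per cell cannot be told apart.

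CGA1 was the least abundant member in the dark and had the steepest rise as a ratio of means. Its level in wild type was 0.630, 0.450 and 0.620 FPKM in the dark and 7.93, 10.2 and 7.62 FPKM in light. In BES1-RNAi it was 2.34, 2.47 and 3.46 FPKM in the dark and 89.2, 95.6 and 99.9 FPKM in light. The groups stood in the same order as for GLK2 and again did not overlap. Of the 633 genes listed for both genotypes, 69.0% separated the genotypes in the dark and 73.8% in light. Dark and light were separate for 96.3% of genes in wild type and 98.9% in BES1-RNAi. Their means were 0.567 ± 0.101, 2.76 ± 0.613, 8.59 ± 1.41 and 94.9 ± 5.41 FPKM (SD, n = 3 each). BES1-RNAi in the dark held 32.1% of the level of wild type in light, close to the share found for GLK2.

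GATA2 and GATA4 went the other way and fell in green light. In wild type GATA2 stood at 71.7, 63.1 and 66.0 FPKM in the dark and at 21.9, 18.9 and 24.6 FPKM in light. In BES1-RNAi it stood at 73.7, 79.4 and 71.5 FPKM in the dark and at 17.9, 16.8 and 18.4 FPKM in light. The dark libraries of the genotypes overlapped, whereas all dark values lay above all light values. The means were 66.9 ± 4.39 and 21.8 ± 2.89 FPKM in wild type and 74.9 ± 4.08 and 17.7 ± 0.850 FPKM in BES1-RNAi (SD, n = 3 each).

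GATA4, measured in BES1-RNAi, was more abundant than GATA2 in every one of its libraries. It read 247, 228 and 259 FPKM in the dark and 65.3, 62.9 and 63.4 FPKM in light. Dark and light values lay far apart, with means of 244 ± 15.6 and 63.9 ± 1.26 FPKM (SD, n = 3 each). Among all genes listed for BES1-RNAi, 98.9% had no overlap of dark with light libraries.

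**Figure D1:**
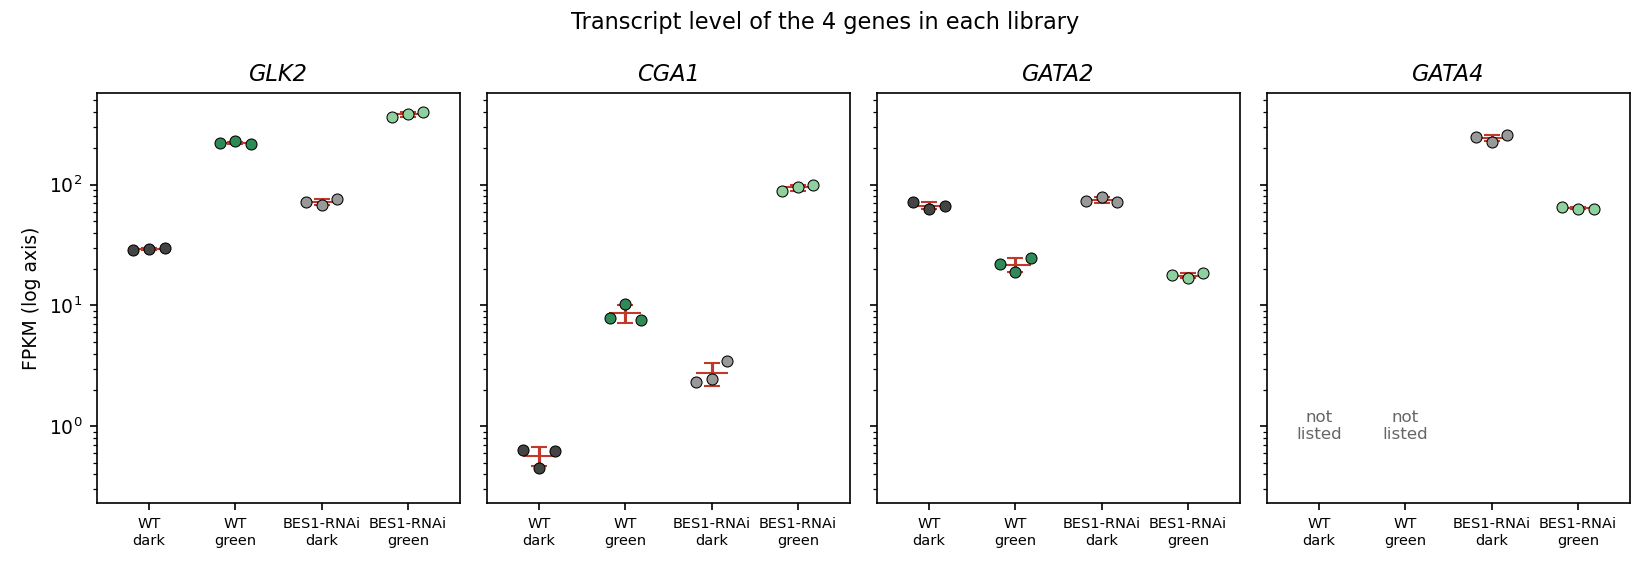
FPKM (log axis) of GLK2, CGA1, GATA2 and GATA4 in each library of the 4 groups; points are libraries, red bars the mean ± SD of 3. GLK2 and CGA1 climb from wild type in the dark to BES1-RNAi in light, whereas GATA2 and GATA4 are lower in light than in the dark.

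The light response was tested on log2(FPKM + 1) with limma, adjusted by Benjamini-Hochberg over all genes of a table, and all members passed. A call is an adjusted p under 0.05. In wild type, 62.9% of all 1287 genes were called higher in light and 34.7% lower, and 96.3% had no overlap of dark with light libraries. GLK2 rose by 2.88 on the log2 scale (SE 0.0866, limma adjusted p = 1.9e-07), 7.56-fold in the means. CGA1 rose by 2.61 (SE 0.175, limma adjusted p = 7.1e-06), 15.2-fold in the means. Since 1 FPKM was added to values below 1, the log2 scale understates this rise, which was 3.70 with 0.1 FPKM added. GATA2 fell by 1.58 (SE 0.123, limma adjusted p = 1.3e-05), from a level 3.07 times that in light. Among the 1287 changes, whose median was 0.82, GLK2 ranked 39 and CGA1 49 from the top, and GATA2 124 from the bottom.

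In BES1-RNAi, 73.5% of all 1077 genes were called higher in light and 26.1% lower, and 98.9% had no overlap of dark with light libraries. CGA1 rose by 4.68 on the log2 scale (SE 0.132, limma adjusted p = 7.8e-09), 34.4-fold in the means, and ranked 6 from the top of the table. GLK2 rose by 2.40 (SE 0.0770, limma adjusted p = 1.3e-08), 5.32-fold in the means. GATA2 fell by 2.02 (SE 0.0849, limma adjusted p = 4.4e-08) and GATA4 by 1.92 (SE 0.0762, limma adjusted p = 3.1e-08), so that the dark level was 4.24 and 3.83 times that in light. The pair ranked 33 and 39 from the bottom, against a median change of 1.07.

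In the dark, BES1-RNAi held more GLK2 and CGA1 than wild type, and GATA2 was not called. These fits used the 633 genes listed for both genotypes in all 12 libraries. In the dark, 48.7% of the 633 were called higher and 15.8% lower in BES1-RNAi, and the genotypes did not overlap for 69.0%. GLK2 was 2.45-fold higher (log2 difference 1.26, SE 0.0799, limma adjusted p = 2.0e-09), and CGA1 was 4.86-fold higher (log2 difference 1.25, SE 0.155, limma adjusted p = 3.0e-06). With 0.1 FPKM added, the difference for CGA1 was 2.09. For GATA2 the difference was 0.16 with a 95% interval from -0.061 to 0.38 (limma adjusted p = 0.19).

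In green light the genotypes stood further apart for CGA1 than for GLK2 or GATA2. Of the 633 genes, 54.7% were called higher in BES1-RNAi and 16.0% lower, and the genotypes did not overlap for 73.8%. CGA1 was 11.1-fold higher (log2 difference 3.33, SE 0.155, limma adjusted p = 8.5e-11), the second highest difference of the 633. GLK2 was 1.72-fold higher (log2 difference 0.78, SE 0.0799, limma adjusted p = 2.5e-07). GATA2 was lower, with a log2 difference of -0.28 (SE 0.104, limma adjusted p = 0.024), and its libraries did not overlap. That call was lost in a fit of the 6 light libraries alone (limma adjusted p = 0.089). It was also lost without library 1 or 3 of wild type in light or library 2 of BES1-RNAi in light, with limma adjusted p = 0.054, 0.13 and 0.083.

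The size of the light response itself differed between genotypes for all 3 members that could be compared, in different directions. In this test of the interaction, 17.7% of the 633 genes were called with a higher change in BES1-RNAi and 10.6% with a lower one. The rise of CGA1 was larger in BES1-RNAi by 2.08 on the log2 scale (SE 0.220, 95% interval 1.61 to 2.55, limma adjusted p = 7.7e-06), the third highest difference of the 633. In the means, the fold in BES1-RNAi was 2.27 times that in wild type, and the difference was 1.37 with 0.1 FPKM added (limma adjusted p = 0.0034). The 1 FPKM added thus enlarged this difference, since the dark level was lower in wild type, and the rank rests on that scale. The rise of GLK2 was smaller in BES1-RNAi by this measure, with a difference of -0.48 (SE 0.113, limma adjusted p = 0.0057). In FPKM GLK2 gained 193 in wild type against 311 in BES1-RNAi, so the smaller fold went with a higher start and a larger gain. GATA2 fell further in BES1-RNAi, with a difference of -0.44 (SE 0.147, limma adjusted p = 0.035). This last call was lost in 8 of 12 fits that left out 1 library, with limma adjusted p up to 0.094: without library 2 or 3 of wild type in the dark, library 1 or 3 of wild type in light, library 1 or 2 of BES1-RNAi in the dark, or library 1 or 2 of BES1-RNAi in light.

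**Figure D2:**
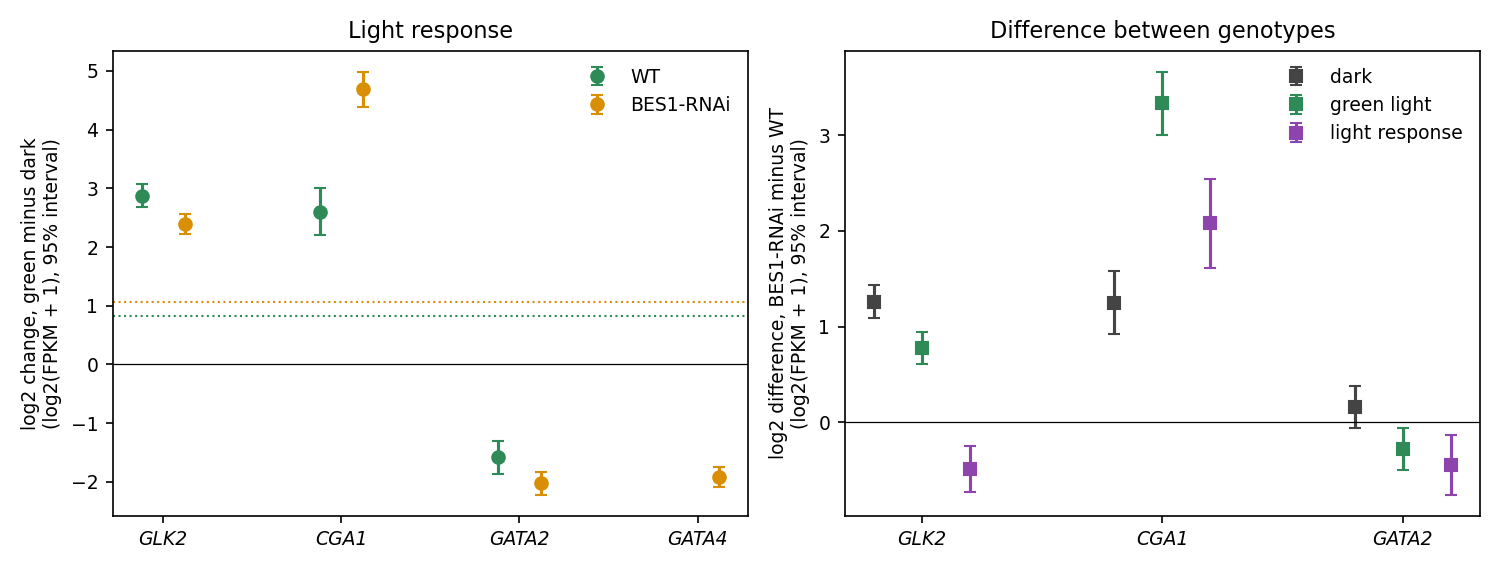
Left, log2 change in green light for each gene in wild type and BES1-RNAi, with dotted lines at the median of all genes in each table; right, log2 difference between genotypes in the dark, in green light and in the light response. Points are limma estimates on log2(FPKM + 1) and bars 95% intervals. CGA1 lies at 4.68 in BES1-RNAi against 2.61 in wild type. The 1 FPKM added enlarges this gap, which is 1.37 with 0.1 FPKM added.

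The scale between libraries changed a direction for GATA2, and for no other member. Setting the median of each library equal lowered the light changes by 0.40 in wild type and by 0.82 in BES1-RNAi on the log2 scale, the genotype difference by 0.41 in the dark and by 0.53 in light, and the interaction by 0.12. Such scaling takes the median listed gene as equal between libraries. Of the listed genes, 62.9% in wild type and 73.5% in BES1-RNAi were called higher in light, so equal medians are not a neutral scale. Which scale is nearer to the RNA content was not tested. After median scaling, GLK2 and CGA1 were still called in the same direction in all 5 comparisons. GLK2 in light differed between genotypes by 0.25 in place of 0.78 (limma adjusted p = 0.013). GATA2 in the dark turned from 0.16 to -0.25 and was called lower in BES1-RNAi (limma adjusted p = 0.031), and in light it differed by -0.81 (limma adjusted p = 2.0e-06). Over all genes, the calls higher and lower went from 792 and 281 to 475 and 284 for light in BES1-RNAi. They went from 308 and 100 to 199 and 201 between genotypes in the dark, from 346 and 101 to 219 and 240 in light, and from 112 and 67 to 85 and 89 for the interaction.

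**Figure D3:**
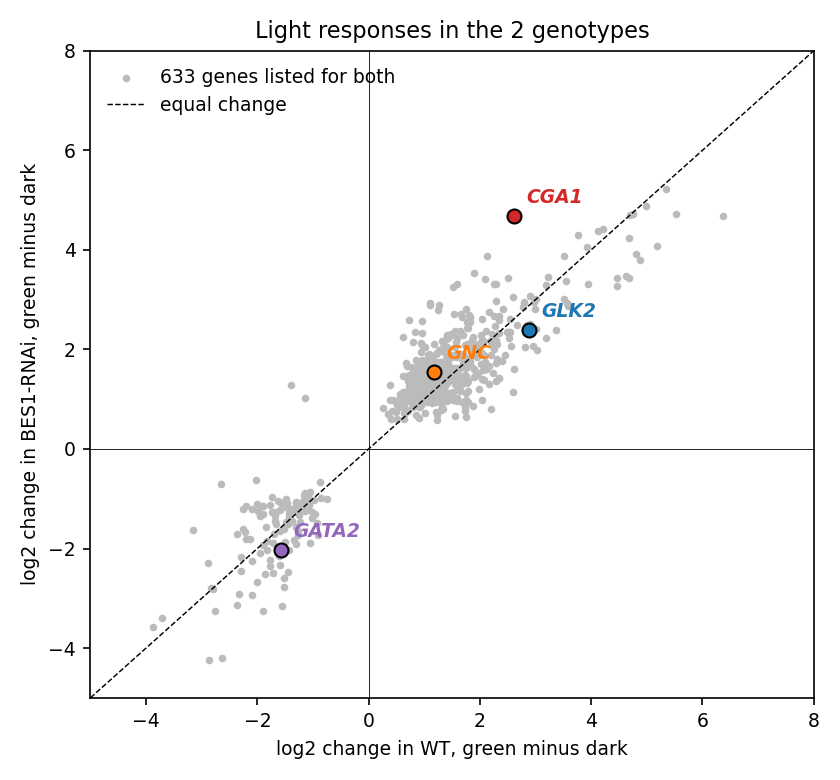
Log2 change in green light in wild type (x axis) and in BES1-RNAi (y axis) for the 633 genes listed for both genotypes, with GLK2, CGA1, GATA2 and GNC marked and a dashed line at equal change. CGA1 lies above the line, at 2.61 and 4.68, and GLK2 a little below it, at 2.88 and 2.40. Changes are of log2(FPKM + 1), which enlarges the gap for CGA1. With 0.1 FPKM added it is 1.37.

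Ratios between members within a library do not depend on how libraries are scaled. In wild type, GLK2 had 0.3995, 0.468 and 0.455 times the level of GATA2 in the dark libraries and 10.07, 12.1 and 8.88 times in light. In BES1-RNAi the ratio was 0.981, 0.856 and 1.05 in the dark and 20.5, 22.9 and 21.6 in light. Light thus moved the log2 ratio by 4.55 in wild type and by 4.49 in BES1-RNAi, with no overlap in either genotype. With 3 libraries against 3, the two-sided exact permutation test cannot go below p = 0.10, which it gave for both (adjusted p = 0.12 over the 7 ratios tested).

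The balance of CGA1 to the other members was not the same in the genotypes. CGA1 had 0.363, 0.542 and 0.309 times the level of GATA2 in light libraries of wild type and 4.99, 5.71 and 5.43 times in those of BES1-RNAi. GLK2 exceeded CGA1 in every library. It did so 45.5-, 65.6- and 48.4-fold in wild type in the dark and 27.8-, 22.3- and 28.7-fold in light. In BES1-RNAi the excess was 30.9-, 27.5- and 21.8-fold in the dark and 4.097-, 4.01- and 3.99-fold in light. Each of these ratios separated dark from light without overlap within each genotype (exact permutation p = 0.10, the smallest possible). Light moved the log2 ratio of GLK2 to CGA1 by -1.01 in wild type and by -2.71 in BES1-RNAi; with 1 FPKM added to both genes the wild-type value turned to 0.27.

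The ratio of GATA2 to GATA4 overlapped between dark and light. GATA2 had 0.299, 0.349 and 0.276 times the level of GATA4 in the dark libraries of BES1-RNAi and 0.274, 0.266 and 0.290 times in light. The log2 ratio differed by -0.15, less than the dark SD of 0.17 (two-sided exact permutation test, p = 0.20, adjusted p = 0.20). The smallest p this design allows is 0.10, so the test could not have called a change.

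**Figure D4:**
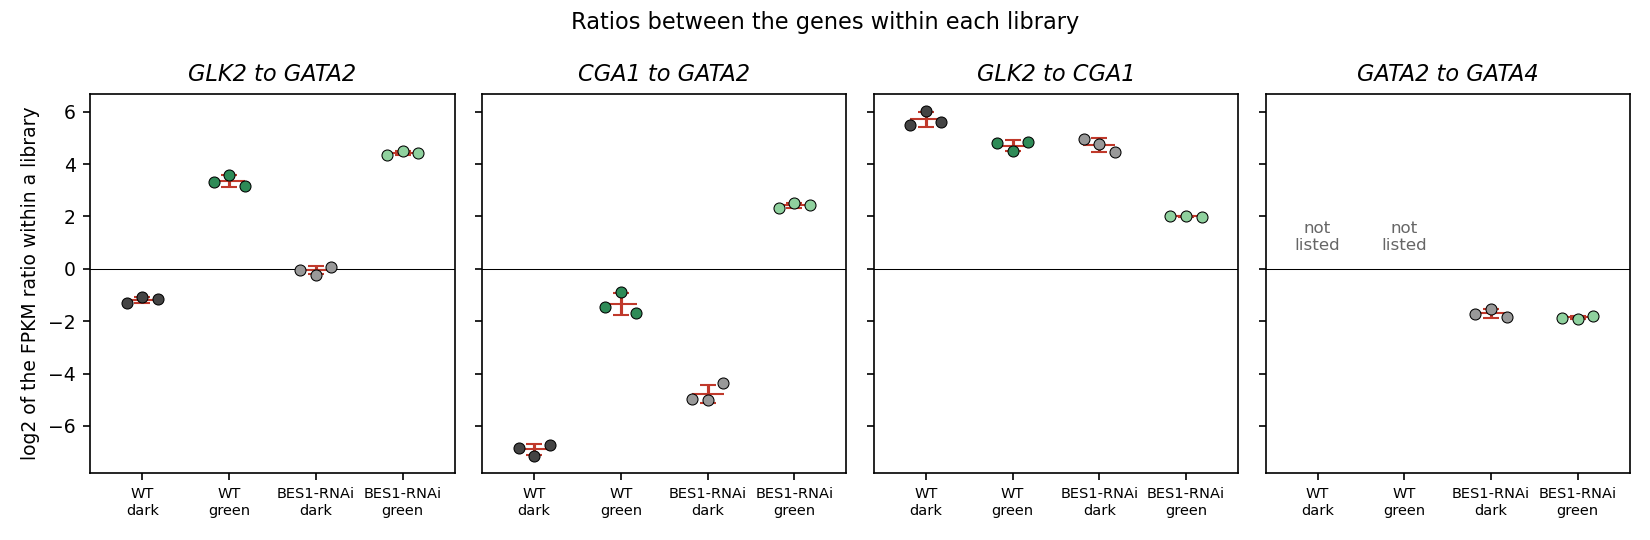
Log2 ratio of FPKM between pairs of the genes within each library of the 4 groups; points are libraries and red bars the mean ± SD of 3. The ratios of GLK2 and CGA1 to GATA2 are higher in light, GLK2 to CGA1 lies near 2 in BES1-RNAi in light, and GATA2 to GATA4 overlaps between dark and light.

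The genes with the most similar pattern were found by the root mean square difference of gene-centred log2(FPKM + 1). Over 12 libraries and 632 other genes, the nearest to GLK2 was AT5G64170, or LNK1, a clock-regulated gene, with a difference of 0.099 against a median of 0.88 for all genes. Next came CCA1, a morning MYB factor of the clock, at 0.12, the zinc knuckle gene TZP at 0.17, and AT3G23530, annotated as a cyclopropane fatty acid synthase, at 0.19. CCA1 stood at 17.8, 149.8, 42.1 and 227 FPKM in wild type in the dark and in light and BES1-RNAi in the dark and in light.

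By this difference over 12 libraries, CGA1 had no match as close as those of GLK2 and GATA2. Its nearest genes differed by 0.66 to 0.73, against a median of 1.63. They were AT1G60590, of the pectin lyase-like family, HYH, a bZIP factor of light signalling, AT5G42760, annotated as a leucine carboxyl methyltransferase, and RUP2, a repressor of UV-B signalling. The nearest, AT1G60590, stood at 0.303, 2.99, 1.76 and 26.3 FPKM in the same order of groups. Its pattern correlated with that of CGA1 at a Pearson r of 0.988. Over the wild-type libraries alone, CGA1 was 11 from the top among the 1286 genes nearest to GLK2, with a difference of 0.18. Over those of BES1-RNAi it was 787 of 1076, at 1.15. The wild-type closeness is a matter of the scale with 1 FPKM added, where CGA1 rose by 2.61 and GLK2 by 2.88. In the means CGA1 rose 15.2-fold there and GLK2 7.56-fold.

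HLS1, which maintains the apical hook of dark-grown seedlings, was nearest to GATA2, at 0.13 against a median of 1.61. HLS1 fell from 18.1 ± 0.928 to 6.12 ± 0.787 FPKM in wild type and from 24.2 ± 1.23 to 5.16 ± 0.197 FPKM in BES1-RNAi (SD, n = 3 each). AT4G11610, annotated as a C2 domain protein, MYB10 and AT4G35720, a DUF241 domain gene, followed at 0.17 to 0.21. For GATA4, over 6 libraries and 1076 other genes, the nearest were ATCTH, a CCCH zinc finger gene, at 0.023, SAG20, a senescence-associated gene, at 0.053, FLS2, the flagellin receptor, at 0.066, and AT3G21330, a bHLH gene, at 0.075. Over the same 6 libraries, GATA4 was 7 from the top among the 1076 genes nearest to GATA2, with a difference of 0.12.

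Of the 30 loci of the Arabidopsis GATA family, the tables list 1 beside the members, GNC, the closest paralog of CGA1. In wild type GNC read 16.8, 14.04 and 13.5 FPKM in the dark and 33.6, 38.3 and 32.0 FPKM in light. In BES1-RNAi it read 33.5, 34.4 and 31.3 FPKM in the dark and 93.6, 90.8 and 112 FPKM in light. The wild-type light values and the BES1-RNAi dark values thus overlapped, unlike those of CGA1. GNC rose by 1.176 in wild type (limma adjusted p = 7.4e-05) and by 1.55 in BES1-RNAi (limma adjusted p = 4.7e-07). It was higher in BES1-RNAi by 1.11 in the dark and by 1.49 in light (limma adjusted p = 3.3e-07 and 8.7e-09), and the interaction of 0.37 did not pass (limma adjusted p = 0.096). GNC was thus the more abundant of the pair in wild type in both conditions, while the 2 had similar levels in BES1-RNAi in light, at 98.9 ± 11.8 FPKM for GNC and 94.9 ± 5.41 for CGA1. GLK1, the paralog of GLK2, was not analysed here.

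Of 10 type-A response regulators, primary response genes of cytokinin, 3 were listed, all for BES1-RNAi, and all rose, in a table where 73.5% of all genes did. ARR7 rose from 10.2, 10.3 and 9.79 to 34.0, 25.9 and 29.4 FPKM. ARR15 rose from 0.430, 0.330 and 0.240 to 2.74, 3.15 and 2.51 FPKM, and ARR16 from 1.89, 3.15 and 4.13 to 7.74, 5.70 and 6.21 FPKM. For each of the 3, all light values lay above all dark values, a separation that 98.9% of the table showed in one direction or the other. Their median log2 change was 1.46, against 1.07 for all 1077 genes.

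Of 18 regulators of light signalling and greening, 4 were listed for wild type and 5 for BES1-RNAi, and all rose, where 62.9% and 73.5% of all genes did. Their median log2 changes were 3.25 and 2.80, against 0.82 and 1.07 for all genes. They were HY5 and HYH, bZIP factors that promote light development, SPA1 and COP1, parts of the ubiquitin ligase that removes such factors in the dark, and PIF5, a phytochrome-interacting bHLH factor. COP1 was listed for BES1-RNAi alone. Of the 4 listed for both genotypes, HYH, SPA1 and PIF5 were, like CGA1, higher in BES1-RNAi in both conditions. The log2 differences in the dark and in light were 2.27 and 1.77 for HYH (limma adjusted p = 4.4e-10 and 4.7e-09). They were 0.90 and 0.72 for SPA1 and 0.62 and 0.91 for PIF5. HY5 was higher in the dark, by 0.82, and was not called in light (0.11, limma adjusted p = 0.39). Of the 633 genes, 48.7% were called higher in the dark and 54.7% in light. The rise of HYH was smaller in BES1-RNAi, with an interaction of -0.50 (limma adjusted p = 0.046), where that of CGA1 was larger. HY5 also had a smaller one (-0.72, limma adjusted p = 0.0035), while SPA1 and PIF5 were not called. A smaller response was called for 10.6% of the 633 genes.

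Genes of the kinds that GLK and GATA factors serve were listed in part. Of 19 chlorophyll synthesis genes, 4 were listed for each genotype and all 8 tests passed as higher in light, where 62.9% (wild type) and 73.5% (BES1-RNAi) of all genes did. The median log2 change was 1.55 against 0.82 for all genes in wild type, while in BES1-RNAi it was 1.04, no higher than the 1.07 of all genes. CHLH, a subunit of magnesium chelatase, stood at 58.2, 51.8 and 46.8 FPKM in wild type in the dark. In BES1-RNAi in the dark it stood at 355, 340.01 and 395 FPKM, without overlap. The genotypes did not overlap in the dark for 69.0% of the 633 genes. All 3 chlorophyll genes listed for both genotypes, CHLH, GUN4 and CAO, were higher in BES1-RNAi in the dark, with log2 differences of 2.78, 1.66 and 1.996. Of all 633 genes, 48.7% were called higher there, and 199 genes after median scaling. For none of the 3 was the light response called larger in BES1-RNAi, a call made for 17.7% of the 633 genes. A smaller response was called for 10.6% of them. CHLH and CAO had a smaller one (interaction -0.63 and -0.55, limma adjusted p = 0.0043 and 0.0063), as had GLK2, and the value for GUN4 was -0.18 (limma adjusted p = 0.39).

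Of 18 light-harvesting genes, 10 were listed for wild type and 3 for BES1-RNAi. All 10 rose in wild type, where 62.9% of all genes did, with a median log2 change of 1.29 against 0.82 for all genes. Dark and light libraries overlapped for LHCB1.5, with 314 FPKM in 1 light library and up to 337 FPKM in the dark. LHCB1.1 rose most, by 3.87 (limma adjusted p = 4.4e-06). In BES1-RNAi LHCB2.2 and LHCB4.3 rose and LHCB1.4 fell, by 1.23 (limma adjusted p = 0.00076). There 73.5% of all genes were called higher and 26.1% lower, and the median of the 3 was 0.99 against 1.07. LHCB2.2 and LHCB4.3 were higher in BES1-RNAi in the dark (2.52 and 0.62) and in light (1.465 and 1.12), as were 48.7% and 54.7% of the 633 genes. Their interactions were -1.06 (limma adjusted p = 0.010) and 0.50 (limma adjusted p = 0.058). Members of this family have near-identical copies, so their values are uncertain. Among genes that mark other parts of the plant, the seed storage gene SESA5 and the root hair genes RSL4 and COBL9 were listed for wild type, of 7 and 3 on those lists. SESA5 went from 2578 ± 412 to 4761 ± 995 FPKM in light, RSL4 from 1.19 ± 0.307 to 2.35 ± 0.724 and COBL9 from 1.12 ± 0.416 to 1.997 ± 0.931 (SD, n = 3 each), and COBL9 was not called (limma adjusted p = 0.11). Their part in the light response of the members was not tested.

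In the 300 bases from 250 before to 50 after the annotated start of each gene, 5 motifs were searched on both strands. These were the G-box CACGTG, the E-box CANNTG, which includes it, the brassinosteroid response elements CGTGCG and CGTGTG, and the GATA site AGATAA. Among 27443 promoters of protein-coding genes on the nuclear chromosomes, the shares with a match were 7.68%, 61.7%, 1.96%, 6.52% and 29.3%. The members held few matches. CGA1 had an E-box at -15, GATA4 a GATA site at -127 and GATA2 a GATA site at 23 bases after the start, and GLK2 had none of the 5. The 250 bases before the start are shown for the genes with a match there, in capitals, in TAIR10.1 on the plus strand.
CGA1, chr4:13252834-13253083: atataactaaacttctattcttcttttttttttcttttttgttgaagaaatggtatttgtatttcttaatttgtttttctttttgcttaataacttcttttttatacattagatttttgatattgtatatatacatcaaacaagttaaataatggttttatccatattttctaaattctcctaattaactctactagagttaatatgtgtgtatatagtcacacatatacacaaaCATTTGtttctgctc
GATA4, chr3:22372763-22373012: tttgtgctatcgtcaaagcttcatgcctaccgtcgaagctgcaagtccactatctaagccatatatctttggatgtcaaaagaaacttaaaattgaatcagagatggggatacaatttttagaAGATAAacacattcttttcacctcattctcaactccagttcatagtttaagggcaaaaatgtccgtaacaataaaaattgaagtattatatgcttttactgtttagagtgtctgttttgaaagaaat
A match is a string of letters, not a binding site, and no match says only that these letters are not in this window.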

How the data were processed

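RNA was measured in 12 libraries of whole seedlings. Per the labels' protocols, RNAiso Plus was used to isolate total RNA and an Illumina TruSeq kit to build the libraries. The values the authors deposited are FPKM per gene and library, to 2 decimals. The build was TAIR10, and DESeq 1.18.0, Bowtie2, TopHat, Cufflinks, HISAT2 2.2.1.0 and Trimmomatic 0.36 were named, per the submitters' processing notes. No role or order comes with these names, and the sources used here do not give the strand or the filter behind the listed genes. Low values held no steps of whole reads: at the best step, 21.9% to 29.4% lay within 0.1 of a whole number, where 20% would by an even spread. Depth is therefore unknown, and no counting interval is given. FPKM depend on the total of a library, which abundant RNAs can move.

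Here, limma 3.58.1 in R 4.3.3 was fitted with an intensity trend to log2(FPKM + 1) of all listed genes, two-sided, without further scaling. Light responses used the 6 libraries of a genotype, and differences between genotypes all 12 over the 633 shared genes. Ratios were tested with scipy 1.17.1. Libraries of a group correlated across genes at a Spearman rho of at least 0.966 and shared at most 2.10% of values, so none was counted as a repeat. Replicate numbers were not used to pair the samples. Correlations of same-numbered libraries ran from -0.15 to 0.23, which with 3 libraries per group cannot settle whether they were paired.

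The members and the lists of genes were chosen with earlier results of these data known. Named genes are the members, the 4 genes nearest to each, listed GATA and GLK genes and up to 3 examples with the lowest adjusted p per other list. Further genes of the light-regulator, chlorophyll, light-harvesting and check lists are named to identify those counted, and were chosen after their values were seen. The coordinates and sequences come from RefSeq TAIR10.1, whose gene table matched 1713 of the 1731 loci. Alternatives were other pseudocounts, a filter at a mean of 1 FPKM, median scaling, no trend, a replicate block, each library left out, and fits of the 6 libraries compared.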

Additional observations from a re-analysis of the deposited data

Results flagged for a closer look

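The light response differed between the genotypes for each of the 3 members listed for both, by the limma test of the interaction over 633 genes. In that test, 17.7% of the 633 genes were called with a higher change in BES1-RNAi and 10.6% with a lower one. CGA1 rose more in BES1-RNAi, by 2.08 on the log2 scale with 1 FPKM added and by 1.37 with 0.1 FPKM added. The fold of its means was 2.27 times that in wild type. By FPKM, every BES1-RNAi library in light lay above every wild-type library in light. The genotypes did not overlap in light for 73.8% of the 633 genes. GLK2 rose by less on the log2 scale, with a difference of -0.48, while its gain in FPKM was larger. GATA2 fell further, with a difference of -0.44, whose call was lost when any of 8 of the 12 libraries was left out. Groups of 3 libraries were not searched for outlying samples.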

How the results depend on the processing

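Of 252 recomputed values for 16 results on the members, 238 kept direction and call, 13 lost the call and 1 changed sign, and 13 of the 16 results kept both under every alternative. Every light response of a member, and every result for GLK2 and CGA1, was among these 13. Leaving out 1 library gave -0.375 to -0.191 for GATA2 between genotypes in light, -0.536 to -0.351 for its interaction and 0.118 to 0.21 for its difference in the dark. The GATA2 call in light was lost with the 6 libraries alone (-0.28, limma adjusted p = 0.089) and its interaction call without the intensity trend (-0.44, limma adjusted p = 0.057). Median scaling turned GATA2 in the dark to -0.25. It moved the count of genes higher to 475 for light in BES1-RNAi, and the counts higher and lower to 199 and 201 between genotypes in the dark and to 219 and 240 in light. The cause was not tested. With 1 FPKM added to both genes, light moved the log2 ratio of CGA1 to GATA2 by 4.19 (wild type) and 6.71 (BES1-RNAi) in place of 5.55 and 7.21. That of GLK2 to CGA1 became -2.29 in BES1-RNAi in place of -2.71 and changed sign in wild type, from -1.01 to 0.27; CGA1 lay below 1 FPKM there in the dark. The replicate block, which takes equal numbers as pairs though pairing is not known, changed no call of a member. Under it GATA2 gave limma adjusted p = 0.031 in light and 0.044 for the interaction. The wild-type count of genes higher in light was 823 in place of 810. With depth unknown, no counting error can be given for low values such as those of CGA1 in the dark.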
